A study of Mus musculus with 12 samples.

Results

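The BCL2 family decides at the mitochondrion whether a cell lives or dies, and 10 of its genes were followed here in granulosa cells around the ovulatory signal: Bcl2, Bcl2l1 and Mcl1, which protect; Bax, Bak1 and Bok, which can open the outer mitochondrial membrane; and Bcl2l11, Bmf, Bad and Bid, whose proteins carry only the BH3 domain and work as death sensors. The genes were chosen by name, with earlier results of these data known, and each was read from its probe sets that name no other gene. Where a gene had several, the probe set with the highest mean over all arrays was used and the others served as a check. Of the 10 genes, 9 had such a probe set, among 18193 genes measured in this way. Bax had none and is not analysed here. The 9 genes were covered by 31 probe sets, and 8 of them by more than 1; Bok was read from a single probe set.

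The samples were granulosa cells, the somatic cells that surround the oocyte, cut by laser from large follicles of 3-week-old mice. Wild-type mice (WT) were compared with bERKO mice, which lack estrogen receptor beta. All mice had received pregnant mare serum gonadotropin (PMSG), a hormone that makes follicles grow as follicle-stimulating hormone does. Cells were taken 48 h after PMSG, or 4 h after a further dose of human chorionic gonadotropin (hCG), which acts as the ovulatory surge of luteinizing hormone. The 4 groups were therefore WT after PMSG, bERKO after PMSG, WT after PMSG and hCG, and bERKO after PMSG and hCG, with 3 arrays each. Per the labels, the arrays of a group are biological replicates; how many mice went into each sample was not stated in the sources used here.

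In a healthy cell, BCL2, BCL-XL (the product of Bcl2l1) and MCL1 hold BAX and BAK1 in check. BH3-only proteins, which respond to lost growth factors, damage or detachment, bind the protectors or activate the pore formers, and cytochrome c then leaves the mitochondrion and switches on caspases. Granulosa cell death by this route is how most growing follicles are lost, a process called atresia, and gonadotropins and estrogen are known as survival signals for granulosa cells.

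Levels are given as normalized log2(intensity + 16), and a change is a difference of 2 group means on that scale, with its standard error (SE). Such a change understates the change of dim genes. Levels of different genes come from different probes and are not compared. A change passes where its p from limma, adjusted over all 18193 genes within the comparison, is under 0.05.

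Before the members, the labels were checked. Esr2, the gene of the missing receptor, measured 9.01 to 10.33 on the WT PMSG arrays and 8.13 to 8.64 on the bERKO PMSG arrays, and 8.68 to 9.52 against 8.13 to 8.53 after hCG. The genotypes did not overlap at either time, but neither difference passed in limma (adjusted p = 0.307 and 0.397). Groups did not overlap for 14.7% of all genes after PMSG and 24.5% after hCG, so the check on the genotype labels is weak. Whether its probe set falls within the deleted exons was not stated in the sources used here. The granulosa label was borne out by 8 or 9 of 9 measured granulosa markers above a log2 level of 6 on each array, among them Inha, an inhibin subunit, at 13.65 to 14.47.

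RNA integrity, read from the 3'/5' ratio of the Gapdh control probe sets, was worst on WT hCG replicate 1 (32.16), followed by bERKO PMSG replicate 3 (23.74). The other 10 arrays had ratios of 4.72 to 11.19. Without both arrays the number of members that passed was the same in all 5 comparisons, with 0, 1, 0, 4 and 1 in the order in which they follow here.

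Markers of other cells also differed between groups. The summed intensity of 10 endothelial markers was 1530 to 3110 in bERKO hCG, against 413 to 700 in WT hCG, 360 to 769 in bERKO PMSG and 486 to 958 in WT PMSG. The sum over 9 granulosa markers was lower in bERKO hCG (75100 to 87600) than in WT hCG (102000 to 126000). Of the 9, 3 were lower and 0 higher in limma, where 1.54% of all genes were lower and 1.55% higher. Inhbb, one of them, read 11.35 to 12.09 in bERKO hCG against 14.1 to 14.65 in WT hCG. Inha overlapped, at 14.17 to 14.44 against 14.08 to 14.45, so the sum did not stand for every marker. Stromal markers summed to 4310 to 16400 and leukocyte markers to 968 to 3530 in bERKO hCG, against 1950 to 2720 and 542 to 867 in WT hCG. In limma 0 of 10 stromal and 0 of 12 leukocyte markers passed in this comparison, where 3.09% of all genes did. In each of these lists 5 had an unadjusted p under 0.05, against 17.5% of all genes. Of the 10 endothelial markers, 4 were higher in limma and 0 lower. After PMSG the stromal sums were 973 to 4430 in bERKO and 721 to 7020 in WT, and the leukocyte sums 439 to 1340 and 414 to 986. Both lists thus overlapped with the PMSG arrays, through bERKO hCG replicate 3, which had the lowest sums of its group (4310 and 968). The sum over 5 theca markers was 1270 to 2120 in bERKO hCG and 2360 to 4110 in WT hCG. Ptch1, the brightest of the 5, read 9.9 to 10.87 in bERKO hCG against 11 to 11.86 in WT hCG. Cyp11b1 went the other way, at 6.27 to 7.31 against 4.77 to 5.46. In limma 1 of the 5 theca markers was higher in bERKO hCG and 0 were lower, so their sum did not stand for every marker. In bERKO hCG, 7 to 9 of 10 endothelial markers, 9 or 10 of 10 stromal markers and 7 to 10 of 12 leukocyte markers lay above a log2 level of 6. On WT PMSG replicate 3 and bERKO PMSG replicate 3, 1 stromal marker lay below 6, as on bERKO hCG replicate 3. On bERKO PMSG replicates 2 and 3, 5 leukocyte markers did, again as on bERKO hCG replicate 3. Every array of the other groups had 5 or more endothelial markers below 6. The sum over 11 oocyte markers was highest in bERKO PMSG, at 6050 to 18300, against 511 to 4800 in WT PMSG, 576 to 1230 in WT hCG and 1100 to 2850 in bERKO hCG. Of the 11, 5 fell in the hCG response of bERKO in limma, where 11.9% of all genes fell, with a median of -2.20, and none passed in bERKO minus WT after PMSG, where 9 had an unadjusted p under 0.05 and the median was 2.33. The part of these cells in the differences of bERKO described below was not tested. In whole-sample RNA such as this, fewer cells of a type and less RNA per cell cannot be told apart.

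**Figure D1:**
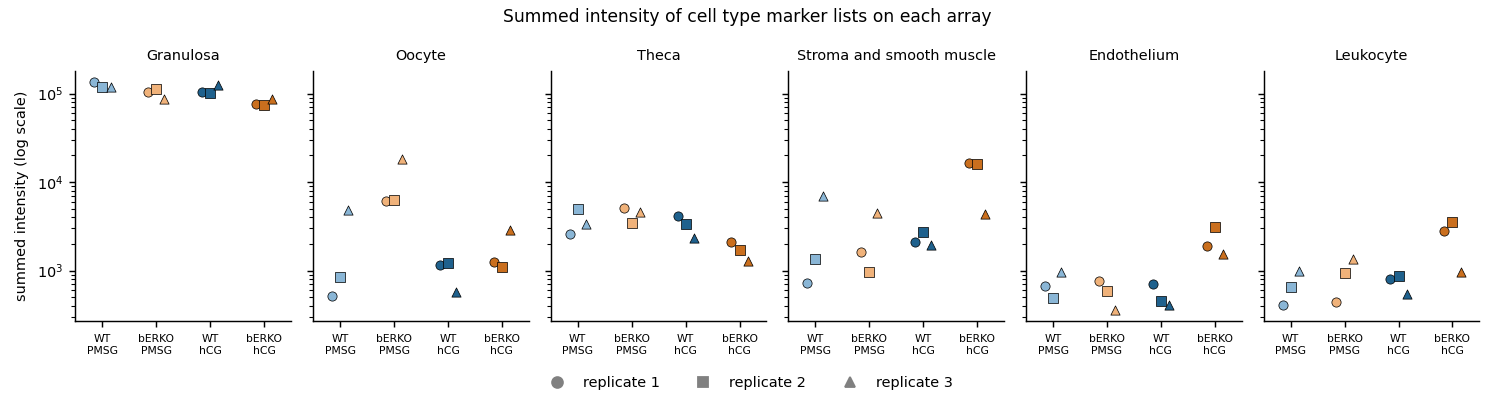
Summed linear intensity of 6 cell type marker lists (log axis) on each of the 12 arrays, by group; symbols mark the replicate number. The 3 bERKO hCG arrays had endothelial sums of 1530 to 3110, above every other array, and the 3 bERKO PMSG arrays had oocyte sums of 6050 to 18300.

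The 4 members that passed in at least 1 comparison were Bcl2l1, Bok, Bad and Bmf, and the 250 bases before their start sites are printed because their transcripts moved. Sequences are from RefSeq on mouse build GRCm38.p6, with the outermost of the starts that the promoter table lists for each gene. For Bok, Bad and Bmf the window adjoins the annotated gene, while for Bcl2l1 the gene, on chromosome 2, reaches to position 152833803, so its window lies inside it. They run 5' to 3' toward the start on the gene's own strand. Capitals mark matches, on either strand, to the short recognition sequences of factors known to act in granulosa cells. For cAMP signalling these were TGACG, the core that CREB recognizes, and TGACGTCA, the full element, which contains it. For AP-1 the letters searched were TGACTCA. Forkhead factors of the FOXO class were searched as GTAAACA. Zinc finger factors of the GATA family were searched as AGATAA. The core of the estrogen response element was searched as AGGTCA. The SP1 site, common in promoters, was searched as GGGCGG.
Bcl2l1, chr2:152831729-152831978, minus strand: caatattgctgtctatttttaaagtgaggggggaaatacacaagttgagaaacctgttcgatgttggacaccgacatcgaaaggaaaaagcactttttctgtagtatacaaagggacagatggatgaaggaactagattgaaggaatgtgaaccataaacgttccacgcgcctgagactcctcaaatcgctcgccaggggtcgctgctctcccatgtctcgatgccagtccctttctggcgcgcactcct
Bok, chr1:93685325-93685574, plus strand: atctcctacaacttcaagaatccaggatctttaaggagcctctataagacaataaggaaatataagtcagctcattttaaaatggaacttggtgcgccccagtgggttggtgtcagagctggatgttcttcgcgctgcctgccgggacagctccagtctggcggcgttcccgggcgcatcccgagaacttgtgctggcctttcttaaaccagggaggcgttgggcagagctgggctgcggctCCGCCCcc
Bad, chr19:6941611-6941860, plus strand: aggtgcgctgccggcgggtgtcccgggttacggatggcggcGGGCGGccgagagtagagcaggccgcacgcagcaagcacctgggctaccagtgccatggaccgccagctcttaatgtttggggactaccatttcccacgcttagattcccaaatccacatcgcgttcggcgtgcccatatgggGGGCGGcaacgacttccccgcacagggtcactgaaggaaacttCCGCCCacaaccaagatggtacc
Bmf, chr2:118549687-118549936, minus strand: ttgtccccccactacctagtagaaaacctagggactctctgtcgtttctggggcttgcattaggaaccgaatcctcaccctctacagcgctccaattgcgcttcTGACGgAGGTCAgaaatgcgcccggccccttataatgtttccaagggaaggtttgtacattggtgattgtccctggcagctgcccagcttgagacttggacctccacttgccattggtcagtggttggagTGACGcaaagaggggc

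The Bmf window held 2 matches to TGACG and 1 to AGGTCA, the Bad window 3 matches to GGGCGG, and the Bok window 1. The table has 3 starts for Bmf and 2 for Bad, and their other windows held none of the letters searched. The Bcl2l1 window held none of them; the table has 3 starts for this gene too, and 1 of the other windows held AGATAA and AGGTCA. Of all 32851 windows of 250 bases in the table, 17.8% held TGACG, 14.0% AGGTCA, 9.99% AGATAA and 32.7% GGGCGG. The GTAAACA sequence stood in 1 of 16 windows of the 10 members, that of Bcl2l11, 227 bases before its outermost start, and in 3.17% of all windows. TGACTCA (4.46% of all windows) and TGACGTCA (1.55%) stood in none of the 16. A match is a description of the letters and shows no binding.

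Before the ovulatory signal, no member differed between genotypes beyond the threshold. In bERKO minus WT after PMSG, 0 of 9 members passed in limma, and 0 of 9 had an unadjusted p under 0.05, against 9.53% of all genes. Over all genes, 2 of 18193 passed (0.011%). The changes of the members ran from -0.95 for Bcl2 to 0.78 for Bok, with a median of 0.12 against 0.04 over all genes.

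At 4 h after hCG, Bcl2l1 was lower in bERKO than in WT, and it was the only member of the 9 to pass. That is 1 of 9 members, against 562 of all genes (3.09%), of which 282 were higher (1.55%) and 280 lower (1.54%). The members' median change was -0.63, against -0.06 over all genes. Bok, Bad, Bid and Bcl2l11 were also lower on all 3 bERKO arrays than on any WT array and did not pass. Such non-overlapping groups, 5 of 9 members in all, were found for 24.5% of all genes. An unadjusted p under 0.05 was found for 4 of 9 members, against 17.5% of all genes. With each array centred on its median, the genes that passed were 356 higher and 179 lower, and with the values as deposited 221 higher and 344 lower.

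The hCG response in WT moved no member beyond the threshold: 0 of 9 passed in limma, against 378 of all genes (2.08%), and 3 of 9 had an unadjusted p under 0.05, against 17.1% of all genes. The nearest were Bmf (1.19, adjusted p = 0.0628) and Bcl2l11 (1.17, adjusted p = 0.0967), both higher on all 3 WT hCG arrays than on any WT PMSG array. Non-overlapping groups were found for 24% of all genes in this comparison. The members' median change was 0.21, against -0.08 over all genes, of which 133 rose (0.731%) and 245 fell (1.35%). With each array centred on its median, 72 genes rose and 325 fell.

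The hCG response in bERKO was larger in number: Bcl2l1, Bok and Bad fell and Bmf rose, 4 of 9 members, against 3447 of all genes (18.9%). Of all genes, 1283 rose (7.05%) and 2164 fell (11.9%); with each array centred on its median, 964 rose and 3005 fell. The groups did not overlap for 6 of 9 members, against 36.2% of all genes, and 5 of 9 had an unadjusted p under 0.05, against 32.2%. The members' median change was -0.06, against -0.19 over all genes. This comparison shares the bERKO hCG arrays with the genotype comparison after hCG.

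The difference of the hCG responses, bERKO minus WT, tests whether the genotypes responded unequally. It passed for Bcl2l1 alone, 1 of 9 members, against 239 of all genes (1.31%), 123 with a positive difference (0.676%) and 116 with a negative one (0.638%). Bok (-2.38, adjusted p = 0.0666) and Bad (-1.81, adjusted p = 0.207) did not pass. An unadjusted p under 0.05 was found for 3 of 9 members, against 15.3% of all genes. The changes of all 9 members in the 5 comparisons are drawn with their confidence intervals, and their levels on each array in the plot of members by array.

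**Figure D2:**
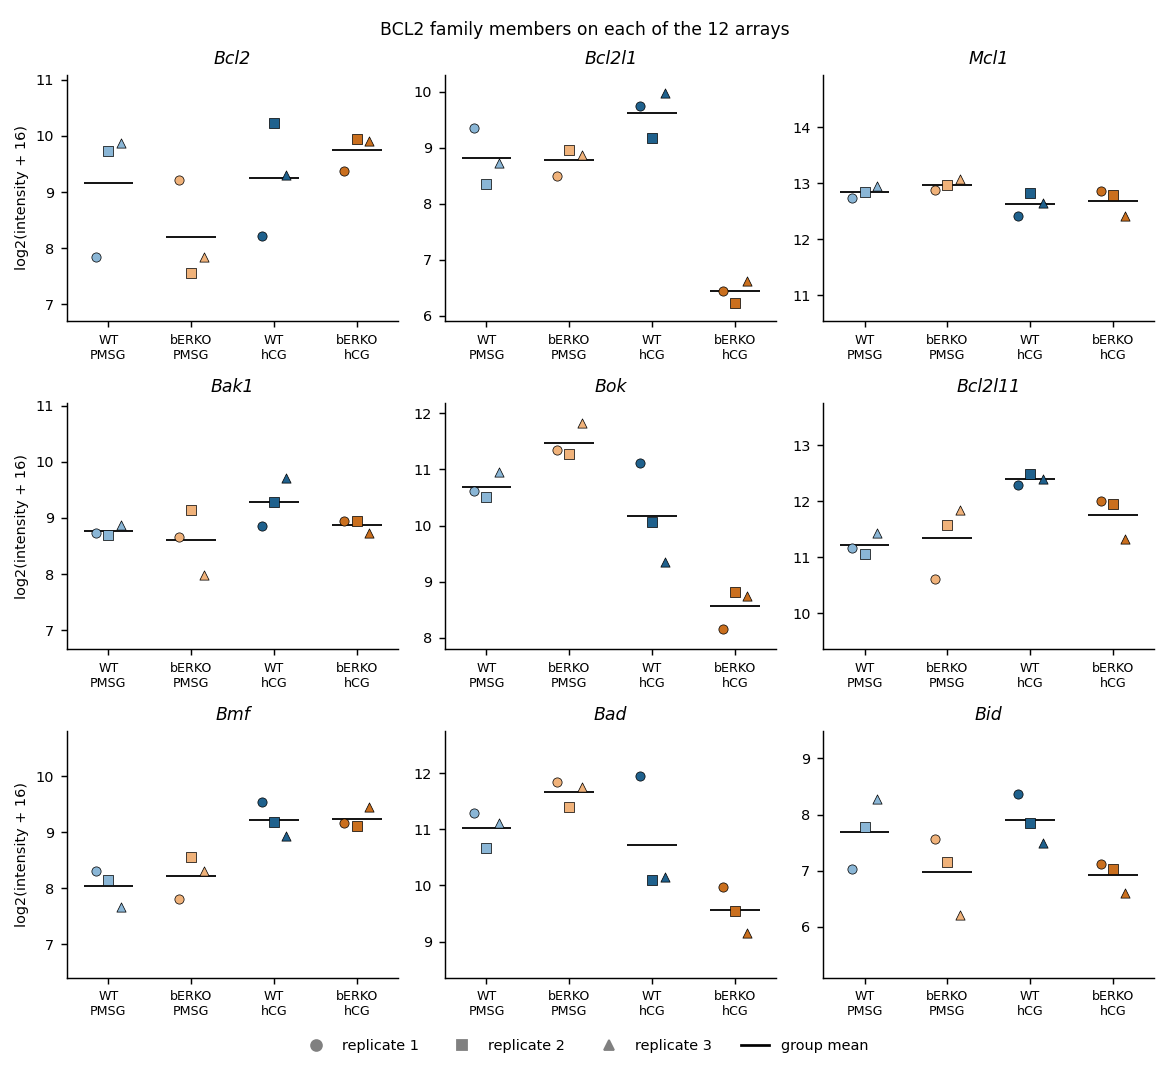
Normalized log2(intensity + 16) of the 9 measured members on each of the 12 arrays, by group; symbols mark the replicate number and bars the group mean over 3 arrays. Bcl2l1 lay at 6.24 to 6.63 on the bERKO hCG arrays and at 8.35 or above on every other array.

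**Figure D3:**
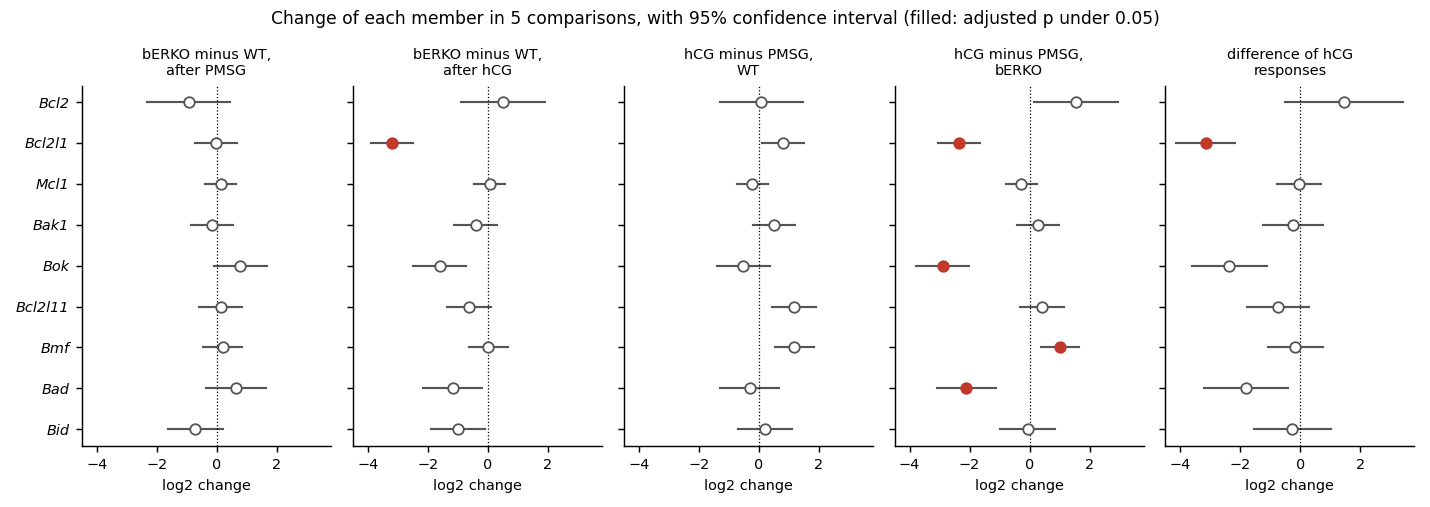
Log2 change of each member in the 5 comparisons, with its 95% confidence interval from limma; filled points passed at an adjusted p under 0.05. Bcl2l1 passed in 3 comparisons, and Bok, Bad and Bmf passed in the hCG response of bERKO.

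Among the protectors, Bcl2l1 showed the largest genotype difference of the 9 members after hCG. Its product BCL-XL guards the outer mitochondrial membrane. Its level was 9.35, 8.35 and 8.73 on the WT PMSG arrays and 8.50, 8.96 and 8.87 on the bERKO PMSG arrays. After hCG it was 9.74, 9.17 and 9.97 in WT and 6.45, 6.24 and 6.63 in bERKO. The 3 bERKO hCG arrays lay below all the others, with no overlap, while the genotypes overlapped after PMSG. The genotype difference was -0.03 (SE 0.32) after PMSG and -3.19 (SE 0.32, 9.12-fold lower) after hCG (limma, adjusted p = 0.00142). The hCG response was 0.81 (SE 0.32) in WT, which did not pass (adjusted p = 0.216), and -2.34 (SE 0.32, 5.07-fold lower) in bERKO, which did (limma, adjusted p = 0.000735). The difference of the responses was -3.16 (SE 0.45; limma, adjusted p = 0.00894). Leaving out any 1 array kept it between -3.43 and -2.92 and passing.

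The call on Bcl2l1 rests on 1 of its 4 probe sets, 1420887_a_at. On the next, 1426191_a_at, the bERKO hCG arrays read 6.58, 7.15 and 7.31 and the WT hCG arrays 7.93, 8.88 and 9.0. These groups did not overlap either, but the difference of -1.59 did not pass over all probe sets (limma, adjusted p = 0.192). The other two gave 0.28 for 1420888_at and -0.36 for 1426050_at. In the hCG response of bERKO all 4 probe sets were negative, from -2.34 to -0.70. In WT they ran from -1.22 to 0.81. With the mean of the 4 probe sets, the genotype difference after hCG still passed (-1.22, in limma, adjusted p = 0.0284), and the difference of the responses did not (-1.22, adjusted p = 0.0728). The transcript forms that each probe set reads were not stated in the sources used here.

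Mcl1 encodes a short-lived protector. Its level on the probe set used was 12.74, 12.84 and 12.96 in WT PMSG and 12.88, 12.97 and 13.07 in bERKO PMSG. After hCG it was 12.41, 12.82 and 12.65 in WT and 12.86, 12.80 and 12.42 in bERKO. All 12 arrays lay within 1 log2 unit and the genotypes overlapped at both times, while the bERKO hCG arrays lay below the bERKO PMSG arrays. Its changes ran from -0.28 to 0.13 over the 5 comparisons, and none passed in limma. For the hCG response of bERKO the 95% confidence interval was -0.80 to 0.24.

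The 6 probe sets of Mcl1 disagreed on that response. The 3 brightest, whose names end in _x_at and which may bind related transcripts, gave -0.28, -0.29 and -0.31. The other 3 gave 0.39, 1.01 and 2.01. On 1416881_at the level was 9.48, 9.97 and 9.11 in bERKO PMSG and 11.35, 11.44 and 11.82 in bERKO hCG, a rise of 2.01 that passed over all probe sets (limma, adjusted p = 0.00349). On 1448503_at it went from 10.82, 11.01 and 10.88 to 11.95, 11.89 and 11.90, a rise of 1.01 (limma, adjusted p = 0.0133). The groups did not overlap on either. In WT these probe sets gave 0.75 and 0.79, neither passing, and the differences of the responses did not pass for either (adjusted p = 0.29 and 0.815). Whether Mcl1 rose with hCG in bERKO therefore depended on the probe set read.

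**Figure D4:**
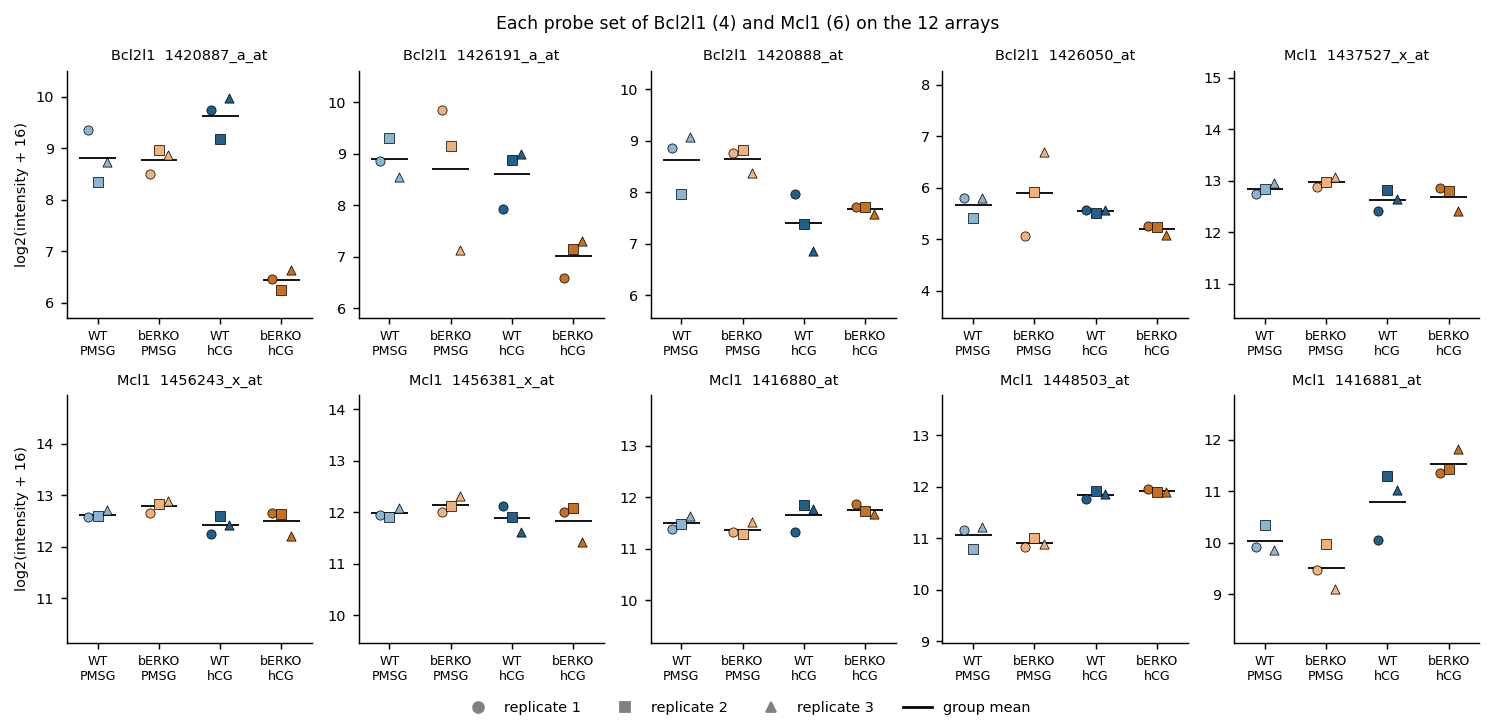
Normalized log2(intensity + 16) of each of the 4 probe sets of Bcl2l1 and the 6 of Mcl1 on the 12 arrays, by group; symbols mark the replicate number and bars the group mean. For Bcl2l1 the genotype difference after hCG was -3.19 on the first probe set and 0.28 on the third; for Mcl1 the hCG response of bERKO ran from -0.31 to 2.01.

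Bcl2, the founding protector, varied widely among the arrays of a group. It read 7.85, 9.73 and 9.88 in WT PMSG and 9.21, 7.56 and 7.84 in bERKO PMSG, then 8.22, 10.23 and 9.30 in WT hCG and 9.37, 9.95 and 9.91 in bERKO hCG. The 3 bERKO hCG arrays lay above the 3 bERKO PMSG arrays, and the other pairs of groups overlapped. The hCG response was 1.54 (SE 0.64) in bERKO and 0.09 (SE 0.64) in WT, and neither passed in limma (adjusted p = 0.118 and 0.966). The difference of these responses was 1.45 (SE 0.90; limma, adjusted p = 0.483). Its 5 probe sets were all positive in the hCG response of bERKO, from 0.22 to 1.54, and in WT they ran from -0.71 to 1.37. The difference of the responses was 1.45 and 0.93 on the brightest. On the dimmest, with mean levels of 6.05, 5.78 and 4.93, it was -0.40, -0.36 and -0.11.

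Among the effectors, Bok fell with hCG in bERKO. BOK is a BAX-like protein known from reproductive tissue. Its level was 10.62, 10.51 and 10.95 in WT PMSG and 11.34, 11.27 and 11.82 in bERKO PMSG. After hCG it was 11.11, 10.06 and 9.35 in WT and 8.16, 8.81 and 8.75 in bERKO. So bERKO was the higher genotype on all arrays after PMSG and the lower on all arrays after hCG. The difference after PMSG was 0.78 (SE 0.40), which did not pass (limma, adjusted p = 0.578); non-overlapping groups were found there for 14.7% of all genes. The response to hCG was -2.90 in bERKO (SE 0.40, 7.48-fold lower; limma, adjusted p = 0.000797) and -0.52 in WT (SE 0.40, adjusted p = 0.58). The summed oocyte markers were likewise highest in bERKO PMSG and lower in bERKO hCG, and their part in the changes of Bok was not tested.

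The genotype difference of Bok after hCG was -1.60 (SE 0.40) and lay just outside the threshold (limma, adjusted p = 0.0558). Over the 11 other settings its adjusted p ran from 0.0228 to 0.147, and it passed in 4: the values as deposited, without dim genes, with the mean of all probe sets per gene, and with array weights. Leaving out dim genes or averaging probe sets did not change the values of Bok, which has 1 probe set. Those settings changed only the other genes of the fit, so they do not recheck its measurement. WT hCG replicate 1, the array with the highest Gapdh ratio, had the highest Bok level of its group. Without it the WT response was -0.99 in place of -0.52, and the genotype difference was -1.13 (limma, adjusted p = 0.154); without it and bERKO PMSG replicate 3 that difference was again -1.13 (limma, adjusted p = 0.113). Without WT hCG replicate 3 the WT response was -0.11. Without this same array, which had the lowest Bok level of its group, the genotype difference passed at -2.01 (limma, adjusted p = 0.0213), and so did the difference of the responses at -2.80 (limma, adjusted p = 0.0231).

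Bak1, whose product sits in the outer mitochondrial membrane, did not pass in any comparison. It read 8.74, 8.70 and 8.87 in WT PMSG, 8.66, 9.15 and 7.99 in bERKO PMSG, 8.85, 9.28 and 9.72 in WT hCG, and 8.94, 8.95 and 8.73 in bERKO hCG. Every pair of groups compared overlapped. Its changes lay between -0.41 and 0.51, and its 95% confidence intervals in the 4 comparisons between groups reached from -1.12, for bERKO minus WT after hCG, to 1.22, for the hCG response of WT.

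Among the BH3-only genes, Bad fell with hCG in bERKO. BAD is held inactive by phosphorylation while survival kinases are active. Its level was 11.29, 10.67 and 11.12 in WT PMSG and 11.85, 11.40 and 11.75 in bERKO PMSG, then 11.95, 10.09 and 10.15 in WT hCG and 9.98, 9.54 and 9.16 in bERKO hCG. On the probe set used, the bERKO arrays lay above the WT arrays after PMSG and below them after hCG, as for Bok. Non-overlapping groups were found for 14.7% of all genes after PMSG and 24.5% after hCG. The difference of Bad after PMSG was 0.64 (SE 0.45), which did not pass (limma, adjusted p = 0.716). On its second probe set that difference was 0.21 and the PMSG groups overlapped, while the hCG groups did not. The hCG response was -2.11 in bERKO (SE 0.45, 4.31-fold lower; limma, adjusted p = 0.00806) and -0.30 in WT (SE 0.45, adjusted p = 0.812). The second probe set of Bad fell by 1.84 in bERKO and also passed over all probe sets (limma, adjusted p = 0.00196). In WT this second probe set gave -0.77, which did not pass (limma, adjusted p = 0.236). Its WT hCG arrays (8.52, 8.90 and 9.24) all lay below its WT PMSG arrays (9.89, 9.41 and 9.66). Non-overlapping groups were found for 24% of all genes in that comparison. The summed oocyte markers ran the same way in bERKO here too, and their part was not tested.

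On the probe set used, the WT response of Bad turned on a single array. WT hCG replicate 1 read 11.95, above all WT PMSG arrays, while replicates 2 and 3 lay below them. Without replicate 1 the WT response of Bad was -0.91 (limma, adjusted p = 0.167) and its genotype difference after hCG was -0.56 in place of -1.17. On the second probe set, WT hCG replicate 1 read 8.52, the lowest of its group (8.90 and 9.24 on the others). The genotype difference of -1.17 (SE 0.45) did not pass (limma, adjusted p = 0.2), nor did the difference of -0.86 on the second probe set (limma, adjusted p = 0.163).

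Bmf, whose product is released from the cytoskeleton when cells lose attachment, was higher after hCG in both genotypes on the probe set used. It read 8.30, 8.14 and 7.67 in WT PMSG and 7.80, 8.56 and 8.31 in bERKO PMSG, then 9.54, 9.19 and 8.94 in WT hCG and 9.17, 9.11 and 9.45 in bERKO hCG. All 6 hCG arrays lay above all 6 PMSG arrays. The response was 1.02 (SE 0.29) in bERKO, which passed (limma, adjusted p = 0.0311), and 1.19 (SE 0.29) in WT, which did not (limma, adjusted p = 0.0628). The difference of the responses was -0.17 (SE 0.41, 95% confidence interval -1.07 to 0.74; limma, adjusted p = 0.89).

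The Bmf call was the least stable of the 4. It was lost on leaving out any 1 of 5 of the 6 bERKO arrays (all but PMSG replicate 2), with adjusted p of 0.0514 to 0.102 in limma. It was also lost with each array centred on its median (0.77, adjusted p = 0.117), with the mean of its probe sets (0.31, adjusted p = 0.591), and in a fit of the bERKO arrays alone (adjusted p = 0.0689). The probe set used ends in _x_at, and the others gave -0.87 and 0.78 for the same response, neither passing. In WT the others gave 0.15 and 0.12, neither passing, against 1.19 on the probe set used.

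Bcl2l11 encodes BIM, a sensor of growth factor loss and a target of FOXO factors. It read 11.17, 11.06 and 11.44 in WT PMSG and 12.29, 12.49 and 12.39 in WT hCG, without overlap. In bERKO it read 10.62, 11.57 and 11.84 after PMSG and 12, 11.95 and 11.33 after hCG, with overlap. The response was 1.17 (SE 0.33) in WT and 0.42 (SE 0.33) in bERKO, and neither passed in limma (adjusted p = 0.0967 and 0.425); the difference of the responses did not pass either (-0.75, SE 0.47, adjusted p = 0.487). With array weights the WT response passed (1.22, limma, adjusted p = 0.0208). The 5 probe sets of Bcl2l11 gave 0.01 to 1.17 for WT.

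Bid, which links death receptors to the mitochondrion once caspase 8 cuts it, was lower in bERKO than in WT after hCG without passing. It read 8.37, 7.84 and 7.50 in WT hCG and 7.12, 7.02 and 6.60 in bERKO hCG, after 7.03, 7.77 and 8.28 in WT PMSG and 7.56, 7.15 and 6.21 in bERKO PMSG. The hCG groups did not overlap and the PMSG groups did. The difference was -0.99 after hCG (SE 0.42; limma, adjusted p = 0.242) and -0.72 after PMSG (SE 0.42; limma, adjusted p = 0.637). All 3 probe sets of Bid were negative after hCG, from -1.28 to -0.40.

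The other genes of the pathway were followed in 5 lists. Of 18 further BCL2 family genes, 13 were measured, and in the hCG response of bERKO 1 rose and 3 fell, where 7.05% of all genes rose and 11.9% fell, with a median of -0.61 against -0.19 over all genes. Bcl2l10, a family member known from oocytes, fell from 11.61 ± 0.22 (SD, n = 3) to 8.52 ± 0.89 (SD, n = 3), a change of -3.09 (SE 0.62; limma, adjusted p = 0.00537). The summed oocyte markers fell with it, from 6050 to 18300 on the bERKO PMSG arrays to 1100 to 2850 on the bERKO hCG arrays, and their part in this change was not tested. Bnip3, a mitophagy receptor induced by hypoxia, fell by 2.29 (SE 0.57; limma, adjusted p = 0.0159). In WT Bnip3 gave -1.97 and Bcl2l10 -1.53, and neither passed. The difference of the responses of Bnip3 was -0.32. Dynll2, the dynein light chain that tethers BMF, fell by 1.35 (SE 0.25; limma, adjusted p = 0.00362) on the probe set used, and its other probe set gave 0.47. None of the 13 passed in the other 4 comparisons in limma, where 1 or 2 of them had an unadjusted p under 0.05, against 9.53% to 17.5% of all genes.

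Of 18 genes of the apoptosome, the caspases and their inhibitors, 16 were measured, and 4 fell and 0 rose in the hCG response of bERKO, against 11.9% and 7.05% of all genes. Among them were Diablo (-1.03, SE 0.23; limma, adjusted p = 0.0103), which counters inhibitors of apoptosis, and Endog (-1.78, SE 0.40; limma, adjusted p = 0.0105), a mitochondrial nuclease. The probe sets of Endog ran from -1.78 to -0.64 in bERKO and from -1.54 to -1.01 in WT. Those of Diablo ran from -0.48 to 1.01 in WT, and neither gene passed there. Birc5, or survivin, which also serves cell division, fell in both genotypes, by 1.67 in bERKO (SE 0.49; limma, adjusted p = 0.0323) and by 2.25 in WT (SE 0.49; limma, adjusted p = 0.0386). It was the 1 of 16 that passed in WT, where 1.35% of all genes fell. The median of the list was -0.46 in bERKO, against -0.19 over all genes.

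Of 14 mitochondrial pore, channel and dynamics genes, all 14 were measured, and 2 fell in the hCG response of bERKO, a share near the 11.9% of all genes that fell. These were Vdac3, an outer membrane channel (-1.44, SE 0.26; limma, adjusted p = 0.00308), and Opa1, which keeps the cristae closed (-1.48, SE 0.30; limma, adjusted p = 0.00552). The 3 probe sets of Opa1 ran from -1.48 to 0.02. In WT Vdac3 gave -0.78 and did not pass. Among 12 death receptor and adaptor genes, 11 were measured and 1 rose, against 7.05% of all genes. It was Tnfrsf12a, the receptor of TWEAK, which went from 4.85, 5.65 and 6.61 in bERKO PMSG to 10.98, 11.02 and 11.52 in bERKO hCG. That is a change of 5.47 (SE 0.66; limma, adjusted p = 0.000425), beside 2.56 in WT (adjusted p = 0.0734). Without WT hCG replicate 1 and bERKO PMSG replicate 3 the WT response of Tnfrsf12a was 3.45 and passed (limma, adjusted p = 0.00283). The receptor gene Fas did not pass in either response (-0.95 in WT and 0.04 in bERKO).

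The list of 20 regulators of BCL2 family transcription and turnover had 17 measured genes, of which 3 rose and 4 fell in the hCG response of bERKO, against 7.05% and 11.9% of all genes. Foxo1, whose product drives Bcl2l11 and other death genes in several cell types, read 14.44, 14.37 and 14.46 in bERKO PMSG and 11.75, 11.84 and 10.80 in bERKO hCG. In WT it read 14.46, 14.47 and 14.27 after PMSG and 14.15, 13.91 and 14.23 after hCG. Only the bERKO hCG arrays were low, and they did not overlap with any other group. The genotype difference after hCG was -2.64 (SE 0.29; limma, adjusted p = 0.00222) and the difference of the responses was -2.66 (SE 0.41; limma, adjusted p = 0.0135). Without both arrays of high Gapdh ratio that difference of Foxo1 was -2.61, at the threshold (limma, adjusted p = 0.05). Its 4 probe sets all fell in the hCG response of bERKO, from -2.96 to -1.67. Sgk1, a survival kinase that restrains FOXO factors, rose by 3.25 in bERKO (SE 0.49; limma, adjusted p = 0.00115), beside 1.14 in WT (adjusted p = 0.253). Mapk8, the stress kinase JNK1, rose by 1.95 in bERKO (SE 0.36; limma, adjusted p = 0.00327) on the probe set used, and its 5 probe sets ran from -0.09 to 1.95. Without the same arrays Mapk8 also passed in WT (1.4; limma, adjusted p = 0.0467), where it was 1.29 with all arrays (adjusted p = 0.0881).

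**Figure D5:**
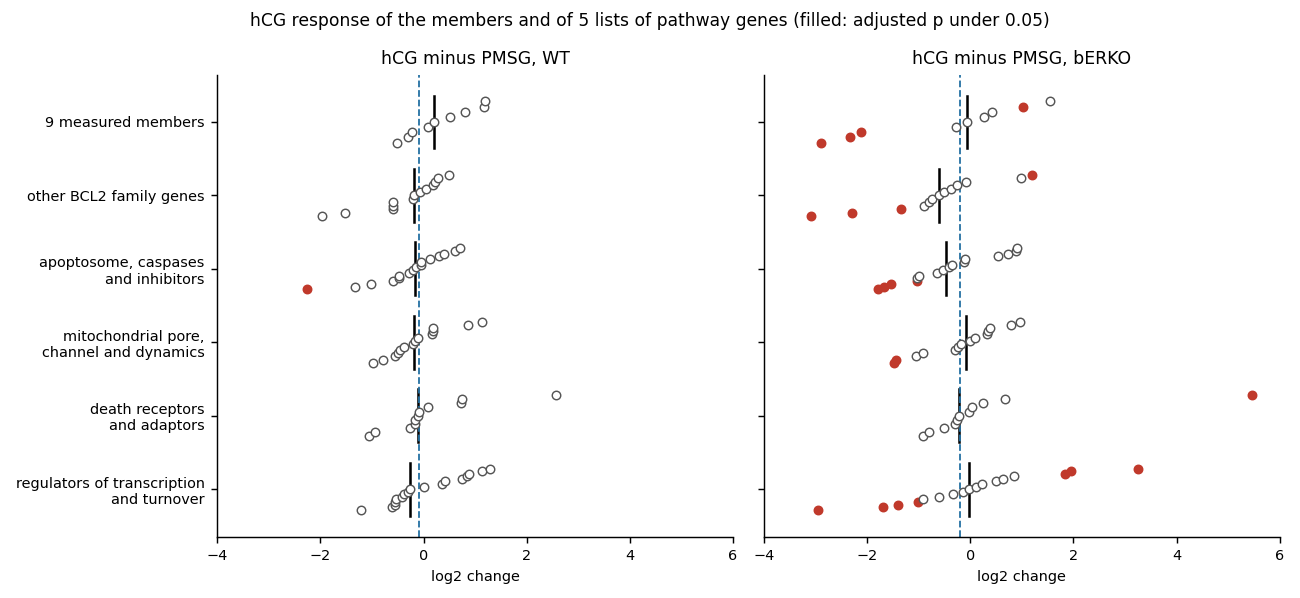
Log2 hCG response of the 9 members and of the genes of 5 pathway lists in WT and in bERKO, 1 point per gene; filled points passed in limma, black bars are the median of a list and dashed lines the median of all genes. In WT 1 point is filled, Birc5 at -2.25; in bERKO Tnfrsf12a lies farthest out at 5.47.

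For the 3 members with the smallest p in limma's F-test among the 4 groups, Bcl2l1, Bok and Bmf, the genes with the most similar levels over the 12 arrays were found by Pearson correlation, as a description across arrays that share their groups. For Bcl2l1 they were Cbfa2t3 (r = 0.970), Nat8f3 (0.950) and Dzip3 (0.949). For Bok they were Tbca (0.986), Cnpy2 (0.968) and Cfap97 (0.968). For Bmf they were Smg5 (0.950), Ccser2 (0.946) and Jund (0.940).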

How the data were processed

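Values were the deposited intensities, 1 per probe set and array, which the authors had scaled to a 2% trimmed mean of 500 on each array. The software behind them was not stated in the sources used here. Per the labels' protocols, 25 ng of total RNA from laser-captured cells was amplified and biotinylated with NuGEN kits.

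Of 45101 probe sets, 64 controls were left out, and 34945 named 1 gene in the platform annotation, 932 several and 9160 none. Array medians on the log2(intensity + 16) scale spanned 0.98, above a limit of 0.5, so intensities were quantile normalized before log2(intensity + 16) was taken. Group means were fitted with limma 3.58.1 (R 4.3.3, statmod 1.5.0) over all 12 arrays, with eBayes, two-sided tests and Benjamini-Hochberg adjustment over 18193 genes (over 34945 probe sets where single probe sets are compared). The fit was tested on simulated data. No genes were filtered. The number of arrays limits the precision. Arrays of a group correlated at 0.914 to 0.971 over genes, so none was a copy.

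The members and lists were chosen with earlier results of these data known. Named genes were all members, up to 3 passing genes per list and comparison by smallest p, and the 3 genes most like each of the 3 members with the smallest F-test p. Fas and the cell markers Esr2, Inha, Inhbb, Ptch1 and Cyp11b1 were named beyond this rule. Alternatives covered scaling, pseudocount (1), dim genes (mean log2 of at least 6), the probe set per gene, the replicate block, the arrays fitted, array weights and left-out arrays. Quantile normalization of the log2 values, and a probe set not ending in _x_at, were added after seeing the data. Figures used Python 3.11.15 and matplotlib 3.10.9.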

Additional observations from a re-analysis of the deposited data

Results flagged for a closer look

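The 9 measured members and Foxo1, added by name, were screened for unequal hCG responses of WT and bERKO, and the other list genes were not. From these, 4 genes were taken up because the difference of the responses passed or because groups that did not overlap pointed in opposite ways. The values below come from the same arrays as that choice and are no separate support for it. The difference of the responses, bERKO minus WT, was -3.16 (SE 0.45) for Bcl2l1 and -2.66 (SE 0.41) for Foxo1, and both passed in limma (adjusted p = 0.00894 and 0.0135). It was -2.38 (SE 0.57) for Bok and -1.81 (SE 0.64) for Bad, and neither passed in limma (adjusted p = 0.0666 and 0.207). Their unadjusted p in limma was 0.00138 and 0.016, and 15.3% of all genes had one under 0.05. Without WT hCG replicate 1 and bERKO PMSG replicate 3, the difference was -3.05 for Bcl2l1, -1.74 for Bok and -1.16 for Bad.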

How the results depend on the processing

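The calls on Bcl2l1, Bok and Bad in the hCG response of bERKO passed under all 11 alternatives and with any 1 array left out, at -2.57 to -1.43, -3.35 to -2.73 and -2.57 to -1.98 over the alternatives. Avoiding _x_at probe sets changed no value of these genes. Averaging probe sets changed none of Bok, and it alone brought in the other probe sets of Bcl2l1 and Bad. Singly, the other probe sets of Bcl2l1 did not pass in this response (limma, adjusted p = 0.0696, 0.0873 and 0.221). The cause of the differences below was not tested.

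Members that passed in bERKO minus WT after hCG numbered 2 (Bcl2l1 and Bok) in place of 1 with the values as deposited, with genes of a mean log2 of at least 6, and with array weights, and 3 (also Bad) with the mean of all probe sets per gene. For the difference of the responses the number was 2 (Bcl2l1 and Bok) under the first 3 of these settings and 0 with the mean of all probe sets. In the hCG response of WT it was 1 (Bmf) without dim genes and 2 (Bcl2l11 and Bmf) with array weights. With 1 array left out the members numbered 1 to 2 in bERKO minus WT after hCG, 1 to 2 in the difference of the responses, 3 to 4 in the hCG response of bERKO, and 0 in the other comparisons. The second member in the first 2 of these was Bok, without WT hCG replicate 3.

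Genes that passed in bERKO minus WT after hCG (562) numbered 225 with a pseudocount of 1, 219 when only the groups compared were fitted, 1239 with array weights and 259 without both arrays of high Gapdh ratio. For bERKO minus WT after PMSG (2) the number was 7 as deposited, 5 with median centring, 0 with a pseudocount of 1, 1 with the mean of all probe sets, 1 with only the groups compared and 7 without both arrays. For the hCG response of WT (378) it was 233 as deposited, 140 with a pseudocount of 1, 699 of 11628 genes without dim genes, 31 with only the groups compared, 1598 with array weights and 835 without both arrays. For the difference of the responses (239) it was 95 with a pseudocount of 1, 420 with array weights and 120 without both arrays. With 1 array left out, genes numbered 141 to 684 in bERKO minus WT after hCG, 0 to 26 in bERKO minus WT after PMSG, 49 to 580 in the hCG response of WT, 2302 to 3848 in that of bERKO and 81 to 408 in the difference. The lowest numbers came without WT hCG replicate 1, bERKO PMSG replicate 3, WT hCG replicate 2, bERKO hCG replicate 3 and bERKO hCG replicate 2, in that order, and a group left with 2 arrays is taken to vary like the rest.

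Replicate numbers did not pair the arrays: same-numbered arrays of different groups correlated at -0.08 to 0.12 in their deviations. With the replicate block, 129 genes passed in the difference of the responses, 148 in the hCG response of WT, 409 and 2 in the genotype comparisons and 3150 in the hCG response of bERKO. The block left 3 of 4 members in that response (Bmf at 1.02, limma adjusted p = 0.0535) and changed no other call on a member.

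Single changes that turned sign had not passed, except that of Bmf. With a probe set not ending in _x_at, Bmf was -0.87 in the hCG response of bERKO and -0.07 in bERKO minus WT after hCG, and Mcl1 was -0.13 in bERKO minus WT after PMSG, 0.39 and 0.15 in the hCG responses of bERKO and WT and 0.24 in their difference. With the mean of all probe sets, Mcl1 was -0.06, 0.42, 0.19 and 0.23 in the same order, Bak1 -0.16 in the hCG response of bERKO, Bcl2 -0.53 in bERKO minus WT after hCG, and Bcl2l1 0.00 in bERKO minus WT after PMSG and -0.21 in the hCG response of WT. As deposited, Bid was 0.23 in the hCG response of bERKO, and Bmf -0.12 and 0.00 in bERKO minus WT after hCG and after PMSG. With median centring, Bcl2 was -0.11 in the hCG response of WT and Bcl2l1 0.08 in bERKO minus WT after PMSG. With array weights, Bcl2 was -0.01 in bERKO minus WT after hCG. Without both arrays, Bak1 was 0.13 in bERKO minus WT after PMSG and -0.03 in the hCG response of bERKO, Bcl2 -0.02 and Mcl1 -0.04 in bERKO minus WT after hCG, Bcl2l11 -0.13 in bERKO minus WT after PMSG, Bid -0.02 in the hCG response of WT, and Bmf 0.04 in the difference of the responses.

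With 1 array left out, signs also turned for Bak1 (-0.45 to 0.13 in bERKO minus WT after PMSG, -0.03 to 0.55 in the hCG response of bERKO, -0.54 to 0.04 in the difference), Bcl2 (-0.02 to 0.99 in bERKO minus WT after hCG, -0.56 to 0.61 in the hCG response of WT), Bcl2l1 (-0.27 to 0.24) and Bcl2l11 (-0.13 to 0.48) in bERKO minus WT after PMSG, Bad (-0.91 to 0.02 in the hCG response of WT), Bid (-0.44 to 0.24 and -0.12 to 0.50 in the hCG responses of bERKO and WT, -0.65 to 0.07 in their difference), and Bmf (-0.12 to 0.18) and Mcl1 (-0.04 to 0.20) in bERKO minus WT after hCG and (-0.38 to 0.02 and -0.17 to 0.08) in the difference. The median over all genes in the hCG response of bERKO moved from -0.19 to -0.05 as deposited and to -0.41 with median centring, so changes are best read relative to it. Dim probe sets limit what can be seen: per array, 18.7% to 30% of probe sets read below the pseudocount of 16.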
